A study of Mus musculus with 8 samples.

Results

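Lyz1, Lyz2, Mmp7, Ang4, Pla2g2a and Habp2 are 6 genes for secreted enzymes, most of them known from Paneth cells, and were picked by symbol among the 45706 Ensembl genes counted in crypts of the small intestine (SI) and colon (COL). Crypts, which are glands of the intestinal epithelium, were isolated from 4 wild-type C57BL/6N mice (2 females and 2 males, no age given) by chelation with EDTA, with 1 library from each tissue of each animal. The libraries are called SI1 to SI4 and COL1 to COL4, where the same number marks the same mouse. SI1 and COL1 (donor mouse 1) and SI4 and COL4 (donor mouse 5) came from females, and the libraries numbered 2 and 3 from males. The labels name no transgene, treatment or pooling, and all samples share this genotype and strain. Values are CPM, the counts of a gene relative to 1000000 counts of the effective (TMM-scaled) library. A gene was called when its adjusted p-value in the SI against COL comparison was below 0.05.

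Paneth cells sit at the base of small intestinal crypts, between the stem cells, and release granules with antimicrobial peptides and enzymes into the crypt lumen. They are rare or absent in the normal mouse colon. Lysozyme cleaves the peptidoglycan of bacterial cell walls, and the mouse has one gene for the Paneth cell form (Lyz1) and one for the form of macrophages and other myeloid cells (Lyz2). Mmp7 (matrilysin) cuts the precursors of the mouse α-defensins into their active form, Ang4 is a bactericidal member of the ribonuclease A family, Pla2g2a is a secreted phospholipase A2 that attacks bacterial membranes, and Habp2 is a hyaluronan-binding serine protease that circulates in plasma.

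Lyz1 (ENSMUSG00000069515) lies on the minus strand of chromosome 10 (GRCm38, chr10:117287797-117292868), 5475 bases beyond the end of Lyz2 (ENSMUSG00000069516, chr10:117277331-117282321, same strand). Their coding sequences had 422 of 444 bases in common (95.0%). Coding bases 37 to 156, which hold 14 of the 22 differences, are shown because only such positions let reads be given to one of the 2 genes. Capitals mark the differing bases.
Lyz1: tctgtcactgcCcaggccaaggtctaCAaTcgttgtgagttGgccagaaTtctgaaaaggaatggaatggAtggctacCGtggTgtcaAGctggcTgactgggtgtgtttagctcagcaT
Lyz2: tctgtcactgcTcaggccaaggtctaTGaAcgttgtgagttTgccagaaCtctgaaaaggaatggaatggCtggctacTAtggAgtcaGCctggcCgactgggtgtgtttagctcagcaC
Over the whole annotated transcripts, 16.1% of the 50-base stretches of Lyz1 also occurred in Lyz2 and 15.4% of those of Lyz2 in Lyz1, so that most reads could be placed but the smaller of the 2 counts in a library is the less certain.

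Upstream of their starts, the 2 lysozyme genes differed more. The RefSeq promoter table (GRCm38.p6) held 5 of the 6 members. In the 250 bases before the start of Lyz1 and Lyz2, 200 of 252 aligned columns were identical (79.4%), with 92 identical columns among the last 100 and 108 among the 152 before them. The starts are those of RefSeq. The Lyz2 window (chr10:117282273-117282522) reaches into the gene given above (end 117282321), so that its bases nearest the start lie inside that gene. The Lyz1 window lies wholly upstream of its gene (end 117292868). Bases 250 to 51 before the start are shown, read on the minus strand from chr10:117292919-117293118 (Lyz1) and chr10:117282323-117282522 (Lyz2), with differing bases in capitals, since these neighbouring windows belong to the member with the largest SI against COL difference and the one with the smallest.
Lyz1: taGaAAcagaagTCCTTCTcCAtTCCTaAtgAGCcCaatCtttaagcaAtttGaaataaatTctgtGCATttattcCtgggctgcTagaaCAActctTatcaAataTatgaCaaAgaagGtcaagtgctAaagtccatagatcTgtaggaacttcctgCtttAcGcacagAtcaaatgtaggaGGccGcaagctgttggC
Lyz2: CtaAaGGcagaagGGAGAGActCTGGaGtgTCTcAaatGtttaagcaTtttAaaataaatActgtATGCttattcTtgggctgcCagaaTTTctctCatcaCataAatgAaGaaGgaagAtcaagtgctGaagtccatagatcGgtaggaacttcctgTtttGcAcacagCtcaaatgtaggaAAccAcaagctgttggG
The last 50 bases of both windows, which are not shown, were identical. Of 3 core motifs searched on both strands, TTTATG (the core bound by CDX factors) lay in the Lyz2 window with its first base 149 bases before the start and not in that of Lyz1, against 10.8% of 32851 mouse promoter windows of 250 bases. CTTTGA (TCF/LEF core) was in neither lysozyme window (13.8% of all windows), and GAGGAA (PU.1 core) was in neither (23.3% of all windows). These matches are descriptions of the letters only.

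The 8 libraries held 15969428 to 32908060 counts, and counts of mitochondrial genes made up 4.83% to 50.8% of them. The share was 4.84% in SI1 and 7.35% in SI4, both female, and 28.3% in SI2 and 22.7% in SI3, both male, so that sex and mitochondrial share cannot be told apart among the SI libraries. SI1 was at the extreme of the SI libraries in cell type markers. The summed CPM of 7 villus enterocyte markers (Apoa1 and Anpep were the most abundant) was 118833 in SI1 and 83838 in SI4, both female. It was 51650.5 in SI2 and 48851 in SI3, both male, against 13.0 to 144.1 in COL, so that this sum split by sex as well. The summed CPM of 5 crypt base stem cell markers (Olfm4 and Axin2) was 30.7 in SI1 and 217.0 to 310.4 in the other SI libraries, against 39.0 to 54.4 in COL. In bulk RNA, fewer cells of a type and less RNA per cell cannot be told apart.

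Of the 6 members, 3 were called in the quasi-likelihood test of edgeR with Benjamini-Hochberg adjustment, and all 3 (Lyz1, Habp2 and Mmp7) were higher in SI. Among the 14491 genes tested 28.4% were called, 15.5% as higher in SI and 12.9% as higher in COL. With scaling by library size alone the split of the 5903 calls was 1115 toward SI and 4788 toward COL, in place of 2253 and 1863, and the median over all genes moved from -0.09 to -0.82 on the log2 scale, but the same 3 members were called as higher in SI. For these 3 members the SI and COL values in TMM-scaled CPM did not overlap, as for 33.5% of all genes tested. For Mmp7 this rested on the scaling, as given below. Lyz2, Ang4 and Pla2g2a were not called and their SI and COL values overlapped. The plot of member levels by library shows both patterns.

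**Figure D1:**
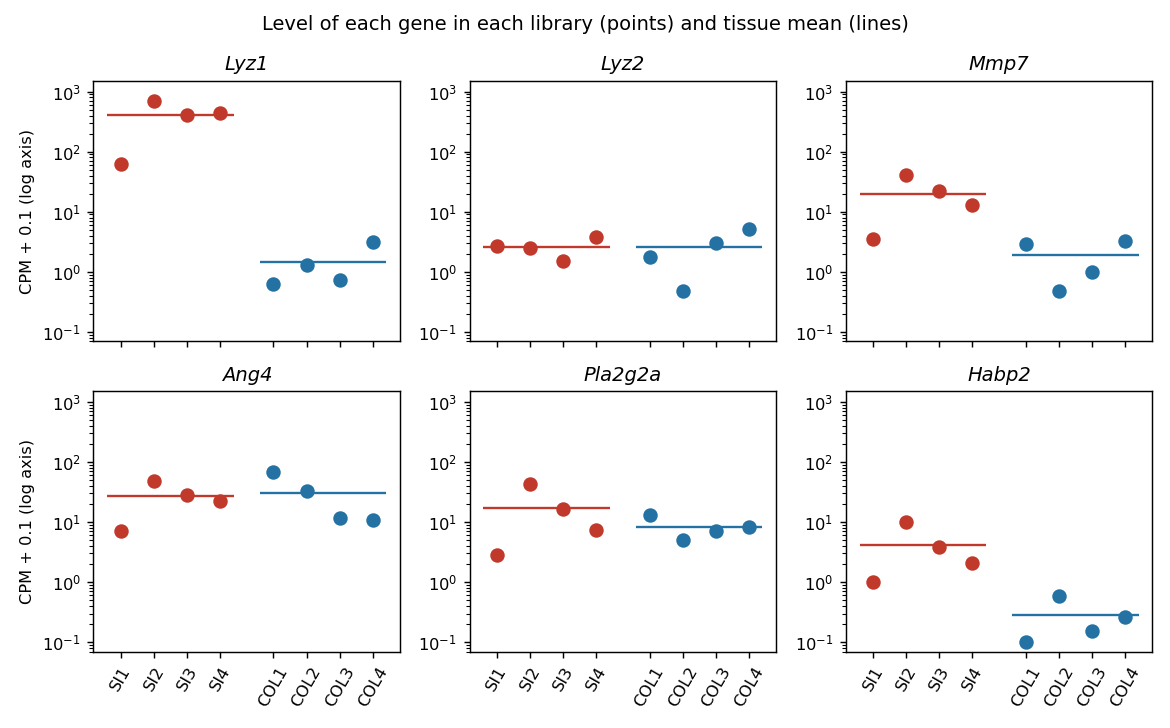
CPM of the 6 members in the 8 libraries on a log axis (offset 0.1 CPM), with 1 point per library (SI red, COL blue) and lines at the tissue means. The SI and COL points are apart for Lyz1, Mmp7 and Habp2 and overlap for Lyz2, Ang4 and Pla2g2a.

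Lyz1 had the largest difference of the 6. It was counted at 61.3, 699.9, 401.0 and 441.6 CPM in SI1 to SI4 and at 0.528, 1.18, 0.642 and 3.08 CPM in COL1 to COL4. The lowest SI library was thus far above the highest COL library, although SI1 was well below the other SI libraries. The means were 401.0 ± 262.3 CPM (SD, n = 4) in SI and 1.36 ± 1.18 CPM in COL, a ratio of 295.4. The log2 fold change was 8.18 (SE 0.93) with an adjusted p of 8.31e-05 in the quasi-likelihood test of edgeR with Benjamini-Hochberg adjustment, and it was 8.55 without SI1 and 9.04 without COL4, the COL library with the most Lyz1. In COL, Lyz1 rested on 18 to 147 counts per library.

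Lyz2, the neighbour of Lyz1, did not follow it. Its values were 2.54, 2.42, 1.42 and 3.75 CPM in SI1 to SI4 and 1.64, 0.373, 2.97 and 5.05 CPM in COL1 to COL4. The COL values spanned the SI values on both sides. The means were 2.53 ± 0.96 CPM in SI against 2.51 ± 2.00 CPM in COL (SD, n = 4), with a log2 fold change of 0.00 (SE 0.67, adjusted p = 0.9992 in the quasi-likelihood test of edgeR with Benjamini-Hochberg adjustment). The direction of so small a value changed with the scaling, to -0.83 with library size alone. The standard error leaves room for differences of over 2-fold in either direction.

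Which lysozyme gene made up the lysozyme counts differed between the tissues. Lyz1 was 96.0%, 99.7%, 99.6% and 99.2% of the summed Lyz1 and Lyz2 counts in SI1 to SI4, with the lowest 95% Wilson interval at 94.9% to 96.9%. In COL it was 24.3% (16.0% to 35.2%), 76.0% (56.6% to 88.5%), 17.8% (12.2% to 25.1%) and 37.9% (33.2% to 42.8%), which covers counting error only. Lyz2 was the more abundant lysozyme transcript in COL1, COL3 and COL4 and the less abundant one in COL2, where it had 6 counts. The sum of both genes, which needs no split of shared reads, had a log2 fold change of 6.69 (SE 0.84, adjusted p = 0.000149 in the same edgeR quasi-likelihood test). Macrophage markers, given because Lyz2 is a macrophage gene, summed to 23.3 to 33.3 CPM over 15 genes in SI and 41.7 to 95.7 CPM in COL, with Cd14 and Itgam the most abundant over all libraries. Without Cd14 (32.3 to 75.7 CPM in COL) the other 14 markers summed to 13.9 to 26.3 CPM in SI and 9.42 to 19.9 CPM in COL, and the median log2 fold change of the list was 0.53. Cd14 and Ms4a7 were higher in COL, Itgam was higher in SI, and the other 7 markers tested were not called. Of 9 granulocyte markers (summed 1.06 to 4.89 CPM in SI and 0.0293 to 0.669 CPM in COL, with Ltf and Csf3r the most abundant), Elane and Mpo had no count in any library. Ltf was the one marker tested and was called as higher in SI, and without it the sums were 0 to 0.785 CPM in SI and 0.0293 to 0.559 CPM in COL. Whether such cells contributed to the Lyz2 counts was not tested.

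Habp2 (ENSMUSG00000025075, plus strand, chr19:56287137-56320822) had few counts in both tissues. Its values were 0.906, 9.85, 3.75 and 1.97 CPM in SI1 to SI4, which are 20, 163, 74 and 43 counts. COL1 to COL4 had 0, 8, 2 and 8 counts, or 0 to 0.497 CPM, so that the lowest SI library was above the highest COL library. The means were 4.12 ± 4.00 CPM in SI against 0.180 ± 0.223 CPM in COL (SD, n = 4), and the log2 fold change was 4.66 (SE 1.12, adjusted p = 0.00848 in the quasi-likelihood test of edgeR with Benjamini-Hochberg adjustment). It was 5.03 without SI1, 3.77 without SI2 and 5.61 without COL2. Of its 50-base stretches, 7.92% also occurred in Nrap, which is annotated on the opposite strand.

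Mmp7 (ENSMUSG00000018623, plus strand, chr9:7692090-7699585) was called as well, with a narrow gap between the tissues. It was counted at 3.35, 41.2, 22.3 and 12.8 CPM in SI1 to SI4 and at 2.82, 0.373, 0.909 and 3.10 CPM in COL1 to COL4. The lowest SI library, SI1, was only slightly above COL4, the highest COL library. That gap rested on the TMM scaling. SI1 held 74 Mmp7 counts among 30368676, and COL4 held 148 among 32908060, so that relative to library size alone COL4 was above SI1. The means were 19.9 ± 16.2 CPM in SI against 1.80 ± 1.36 CPM in COL (SD, n = 4), and the log2 fold change was 3.43 (SE 0.79, adjusted p = 0.0069 in the quasi-likelihood test of edgeR with Benjamini-Hochberg adjustment). It was 3.79 without SI1 and 2.82 without SI2. The 4 libraries of low mitochondrial share alone (SI1, SI4, COL3 and COL4) gave a log2 fold change of 1.99, which was not called (adjusted p = 0.132 in the same edgeR test). Of the 50-base stretches of Mmp7, 7.36% also occurred in AV064505 on the opposite strand. The promoter table gives 2 starts for Mmp7. In the 250 bases before the one at the 5′ end of the gene, GAGGAA lay on the reverse strand with first bases 136 and 107 bases before the start, and in the window of the other start CTTTGA lay on the reverse strand, 246 bases before it.

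Ang4 (ENSMUSG00000060615, minus strand, chr14:51763878-51773590) was present in both tissues. Its values were 6.93, 48.2, 28.6 and 22.6 CPM in SI1 to SI4 and 68.9, 32.4, 11.6 and 10.6 CPM in COL1 to COL4. COL1 was the highest library and SI1 the lowest, both from the same mouse, and the other 6 libraries interleaved. The means were 26.6 ± 17.1 CPM in SI against 30.9 ± 27.2 CPM in COL (SD, n = 4), and the log2 fold change was -0.22 (SE 0.65, adjusted p = 0.836 in the quasi-likelihood test of edgeR with Benjamini-Hochberg adjustment). The direction was not stable, with a log2 fold change of 0.56 without COL1 and of 0.13 without SI1. The coding sequence of Ang4 was 84.8% to 88.0% identical to those of Ang, Ang2, Ang5 and Ang6, and 4.70% of its 50-base stretches were shared with Ang5 or Ang2. The counts of the angiogenin genes summed as 1 gene had a log2 fold change of -0.40 (SE 0.34), which was not called (adjusted p = 0.408 in the same edgeR test).

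Since Ang4 was counted in COL too, markers of other secretory cells are given beside it. The 4 colonic deep crypt secretory cell markers (Reg4, Kit, Cd24a and Retnlb, of which Cd24a and Reg4 were the most abundant) summed to 399.5 to 706.0 CPM in COL and 108.6 to 141.6 CPM in SI, and all 4 were called as higher in COL (3 in the fit with the mouse as a block, where Reg4 had an adjusted p of 0.0508 in the edgeR test). The 8 goblet cell markers summed to 12987 to 24508 CPM in COL and 2909 to 11036 CPM in SI, and 4 of them (Muc2, Agr2, Spink4 and Ccl6) were called as higher in COL. The other 4 were not called, and Fcgbp stood at 2383 CPM in SI against 1504 CPM in COL. Without Muc2 the goblet marker sums overlapped, at 5093 to 11182 CPM (COL) and 2518 to 10048 CPM (SI). Ang4 fell from COL1 to COL4. The goblet marker sums of COL1 to COL4 were 24508, 12987, 16789 and 22068 CPM, highest in COL1 as Ang4 was. The deep crypt secretory marker sums were 678.7, 399.5, 694.8 and 706.0 CPM. The single markers behind the latter sums differed in order. Retnlb and Cd24a were highest in COL1, Reg4 in COL3 and Kit in COL4. The part of these cells in the Ang4 counts was not tested.

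Pla2g2a (ENSMUSG00000058908, plus strand, chr4:138831857-138835186) is known to carry a natural disruption in C57BL/6 mice, and the annotation lists it as a polymorphic pseudogene. Its transcript was nevertheless counted in every library. The values were 2.76, 42.8, 16.6 and 7.19 CPM in SI1 to SI4 and 13.0, 4.91, 7.14 and 8.10 CPM in COL1 to COL4. In these TMM-scaled values SI2 and SI3 were above all COL libraries and SI1 below all of them. For SI3 this rested on the scaling. SI3 held 327 Pla2g2a counts among 24765888, and COL1 held 443 among 23634863, so that relative to library size alone COL1 was above SI3. The means were 17.3 ± 17.9 CPM in SI against 8.29 ± 3.41 CPM in COL (SD, n = 4), and the log2 fold change of 1.06 (SE 0.67) was not called (adjusted p = 0.269 in the quasi-likelihood test of edgeR with Benjamini-Hochberg adjustment). It was 0.11 without SI2 and 1.43 without SI1. None of its 50-base stretches occurred in another gene.

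Per kilobase of annotated exon, the order of the mean levels in SI was Lyz1, Ang4, Pla2g2a, Mmp7, Lyz2 and Habp2, at 317.5 ± 207.7, 37.5 ± 24.1, 18.7 ± 19.3, 18.6 ± 15.1, 1.92 ± 0.73 and 1.29 ± 1.25 CPM per kb (SD, n = 4). In COL the order was Ang4, Pla2g2a, Lyz2, Mmp7, Lyz1 and Habp2, at 43.6 ± 38.4, 8.93 ± 3.68, 1.91 ± 1.52, 1.68 ± 1.27, 1.07 ± 0.94 and 0.0562 ± 0.0698 CPM per kb. Lyz1 was thus first in SI and last but one in COL. Among neighbours in the SI order, Ang4 and Pla2g2a, Pla2g2a and Mmp7, and Lyz2 and Habp2 differed by less than the SD of either, and in the COL order Lyz2 and Mmp7, and Mmp7 and Lyz1 did.

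Within the same mouse, Lyz1, Mmp7 and Habp2 were higher in SI in 4 of 4 mice by TMM-scaled CPM. The log2 differences (offset 0.1 CPM) for mice 1, 2, 3 and 5 were 6.61, 9.09, 9.08 and 7.12 for Lyz1. For Habp2 they were 3.33, 4.06, 4.65 and 2.95. For Mmp7 they were 0.24, 6.45, 4.47 and 2.01, so that mouse 1 showed almost none of the difference seen in the other mice. Its sign in mouse 1 rested on the scaling, since SI1 held 74 Mmp7 counts among 30368676 and COL1 held 96 among 23634863. Ang4 was higher in SI in 3 of 4 mice (-3.29, 0.57, 1.29 and 1.08). Pla2g2a was higher in SI in the males (3.10 and 1.20) and lower in the females (-2.19 and -0.17). Lyz2 was higher in SI in mice 1 and 2 (0.60 and 2.41) and lower in mice 3 and 5 (-1.01 and -0.42). Its sign in mouse 1 rested on the scaling too, since SI1 and COL1 each held 56 Lyz2 counts, among 30368676 and 23634863. A fit with the interaction of tissue and sex did not use the pairing of SI and COL by mouse. In it 0 of 14491 genes were called by edgeR's quasi-likelihood test (761 at an unadjusted p under 0.05) and 0 by limma-voom (806 at an unadjusted p under 0.05), with 0 members among them. Of the members, Mmp7 (unadjusted p = 0.00175) and Pla2g2a (unadjusted p = 0.00297 in the same edgeR test) were the ones under 0.05 before adjustment.

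**Figure D2:**
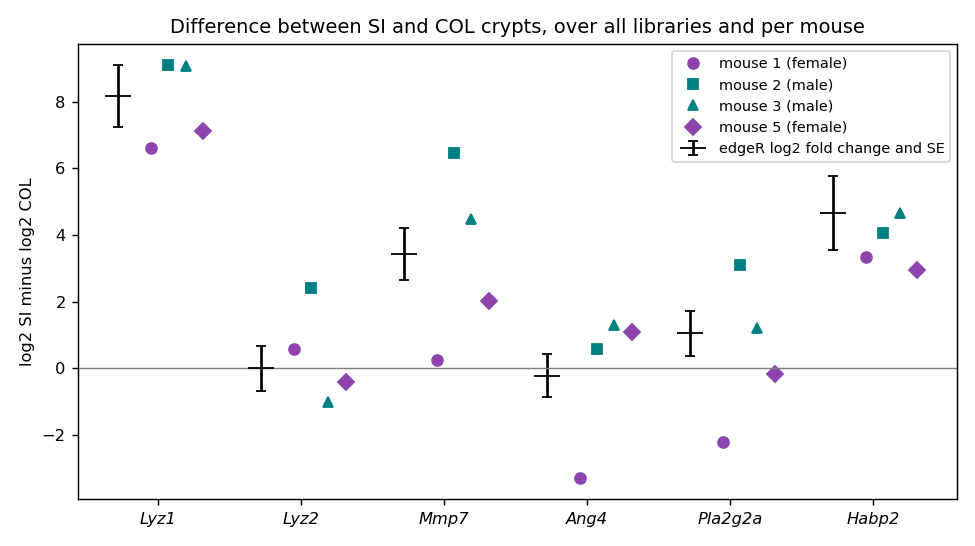
Difference of log2 (CPM + 0.1) between the SI and the COL library of each mouse (points, coloured by sex) for the 6 members on the horizontal axis, beside the log2 fold change over all libraries with its SE (black), with a line at 0. In these TMM-scaled values all 4 mice lie above 0 for Lyz1, Mmp7 and Habp2, and mouse 1 is the lowest for Lyz1, Mmp7, Ang4 and Pla2g2a.

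Among the SI libraries, 5 of the 6 members were lowest in SI1 and highest in SI2, as were 19.1% of all genes tested. The highest SI value was 11.4 times the lowest for Lyz1, 12.3 times for Mmp7, 6.96 times for Ang4, 15.5 times for Pla2g2a and 10.9 times for Habp2, against 2.64 times for Lyz2. Mmp7, Ang4, Pla2g2a and Habp2 had the same order (SI2, SI3, SI4, SI1), which 12.6% of all genes tested had, and Lyz1 differed from it by the exchange of SI3 and SI4. SI1 was the lowest SI library for 35.1% of all genes tested. The low member values in SI1 stood beside its high villus enterocyte and low stem cell marker sums given above, and the part of either in the member values was not tested.

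Set against Lyz1 in the same library, which takes out the scaling, the SI values of 4 members spread less. These members and Lyz1 were all lowest in SI1 and highest in SI2, which by itself tends to narrow such ratios. The share of all genes that would spread less against Lyz1 was not computed. For each 100 Lyz1 counts, SI1 to SI4 held 5.47, 5.89, 5.55 and 2.89 Mmp7 counts, and the highest ratio was 2.04 times the lowest, against 12.3 times for Mmp7 CPM. Ang4 stood at 11.3, 6.89, 7.14 and 5.12 counts for each 100 of Lyz1, Pla2g2a at 4.51, 6.11, 4.13 and 1.63, and Habp2 at 1.48, 1.41, 0.936 and 0.446. SI4 was the lowest library in each of these ratios, and the highest was 2.21 times the lowest for Ang4, 3.76 times for Pla2g2a and 3.31 times for Habp2. Lyz2 again went its own way, with 4.14 counts for each 100 of Lyz1 in SI1 and 0.345 to 0.850 in the other SI libraries.

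**Figure D3:**
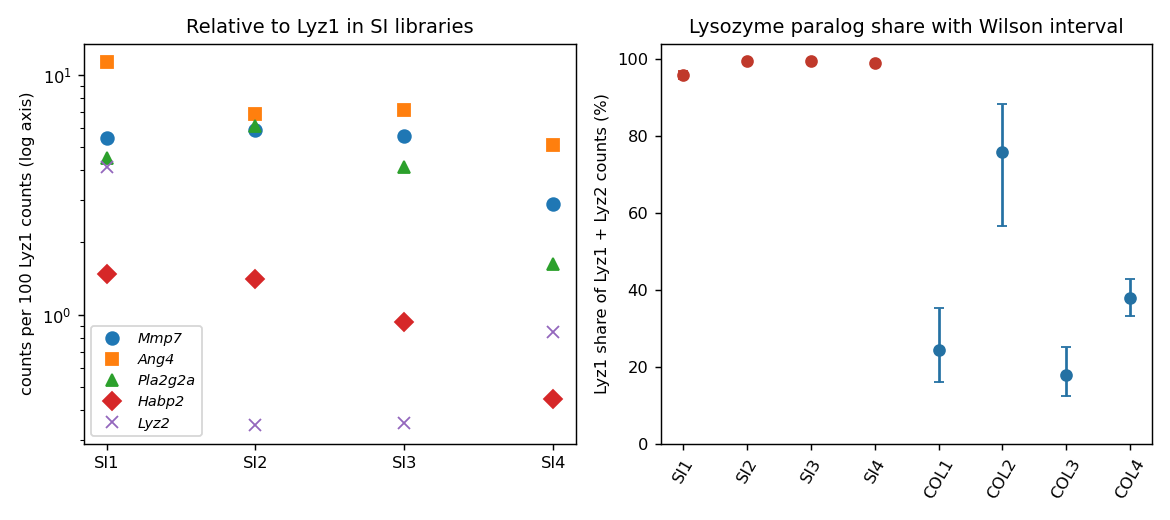
Left, counts of Mmp7, Ang4, Pla2g2a, Habp2 and Lyz2 for each 100 Lyz1 counts in SI1 to SI4 on a log axis, and right, Lyz1 as a percentage of the summed Lyz1 and Lyz2 counts in the 8 libraries with 95% Wilson intervals. On the left SI4 is lowest for Mmp7, Ang4, Pla2g2a and Habp2, and SI1 is highest for Lyz2, and on the right the SI libraries lie at 96.0% or above and the COL libraries at 76.0% or below.

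Across all 8 libraries, of which 4 share each tissue and 2 each mouse, and which differ in depth, the genes most like each member were sought among 9459 genes with a mean of at least 5 CPM. Those for Lyz1 were the α-defensin genes Defa5 (r = 0.997), Defa17 (r = 0.994) and Defa29 (r = 0.993), all Paneth cell genes themselves. Habp2 was most like Slc28a3 (r = 0.976, a nucleoside transporter), Apbb2 (r = 0.975) and the defensin Defa30 (r = 0.973). For the other members the list held no Paneth cell gene. Mmp7 was most like Brip1 (r = 0.966), Sept6 (r = 0.963) and Med19 (r = 0.937), Ang4 like Anp32b (r = 0.965), Nsd2 (r = 0.961) and Hsp90aa1 (r = 0.947), Pla2g2a like Epb41l2 (r = 0.971), Rapgef1 (r = 0.940) and Atad5 (r = 0.933), and Lyz2 like Bub3 (r = 0.982), Gle1 (r = 0.977) and Wrap73 (r = 0.976). With the tissue means removed, the members most alike in log2 CPM were Mmp7 and Pla2g2a (r = 0.877), then Lyz1 and Habp2 (r = 0.744) and Ang4 and Pla2g2a (r = 0.709), while Lyz1 and Lyz2 were at 0.150 and Lyz2 and Ang4 at -0.46. These correlations over 8 libraries are descriptions and were not tested.

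The families of the members held genes that were higher in SI and genes that were higher in COL. Of 10 lysozyme family genes, 3 were tested and Lyz1 was called, whereas Lyzl4, a lysozyme-like gene of the male germ line, stood at 0.352 CPM in SI against 1.09 CPM in COL (log2 fold change -1.63, adjusted p = 0.171 in edgeR's quasi-likelihood test). Of the ribonuclease A family and its inhibitor, 5 of 20 genes found were tested, with a median log2 fold change of -0.22 against -0.09 over all genes tested. Rnase1, the pancreatic-type secreted ribonuclease, was higher in SI, at 38.3 ± 20.8 against 1.24 ± 0.63 CPM (SD, n = 4; log2 fold change 4.93, adjusted p = 4.9e-05 in the same edgeR test). Rnase4 was higher in COL, at 194.6 ± 84.1 against 81.7 ± 36.5 CPM (log2 fold change -1.25, adjusted p = 0.0483 in the same edgeR test), a call that was lost without any one of SI2, SI3, SI4, COL1, COL3 and COL4. Rnh1, the cytosolic ribonuclease inhibitor, stood at 222.7 CPM in SI against 143.6 CPM in COL and Ang at 16.1 and 25.7 CPM, and neither was called.

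Mmp7 was 1 of 2 matrix metalloproteinase genes called as higher in SI. Of 28 genes for metalloproteinases and their inhibitors 9 were tested, 2 called as higher in SI and 5 as higher in COL, and their median log2 fold change was -1.45. Mmp23, a membrane-anchored metalloproteinase, was at 3.66 CPM in SI against 0.231 CPM in COL (log2 fold change 4.04, adjusted p = 0.000861 in edgeR's quasi-likelihood test). The membrane-type metalloproteinases Mmp14 (7.21 against 26.2 CPM, log2 fold change -1.86) and Mmp15 (22.4 against 61.3 CPM, log2 fold change -1.45) were higher in COL. So were the inhibitor genes Timp2 (log2 fold change -3.16) and Timp3 (log2 fold change -3.92), and Timp4 had at most 1 count in any SI library and 10 to 105 counts in those of COL. The call of Timp2 was lost without SI1 or without COL1 (largest adjusted p = 0.0744 in the same edgeR test).

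Of 12 secreted phospholipase A2 and receptor genes 8 were tested, and Pla2g2a was 1 of 3 that were not called. The median log2 fold change was -2.38. Pla2g12b, a member of the family without catalytic activity, was higher in SI, at 211.7 ± 99.7 against 3.60 ± 2.34 CPM (log2 fold change 5.86, adjusted p = 7.02e-05 in edgeR's quasi-likelihood test). Higher in COL were Pla2g10 (2.97 against 74.9 CPM, log2 fold change -4.64), Pla2g3 (log2 fold change -4.05), Pla2g2f (log2 fold change -3.05) and Pla2g2c, which had at most 1 count in any SI library and 25 to 88 in those of COL. The call of Pla2g2f was lost without SI3 (adjusted p = 0.0611 in the same edgeR test). Pla2g5 stood at 3.24 CPM in SI against 10.6 CPM in COL (adjusted p = 0.0976 in the same edgeR test) and was called in the edgeR fit with the mouse as a block (adjusted p = 0.0354).

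Of 13 relatives, substrates and inhibitors of Habp2, 5 were tested, with 1 (Habp2) called as higher in SI, 2 as higher in COL and a median log2 fold change of 0.37. Hgfac, the closely related activator of hepatocyte growth factor, ran opposite to Habp2, at 16.7 ± 2.3 CPM in SI against 248.7 ± 126.3 CPM in COL (SD, n = 4; log2 fold change -3.90, adjusted p = 6.06e-05 in edgeR's quasi-likelihood test). Plaur, the urokinase receptor, was also higher in COL (log2 fold change -1.87, adjusted p = 0.0163 in the same edgeR test), a call lost without COL3 or without COL4. The serpin genes Serpinf2 (1.52 against 0.783 CPM) and Serpinc1 (1.63 against 1.29 CPM) were not called.

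**Figure D4:**
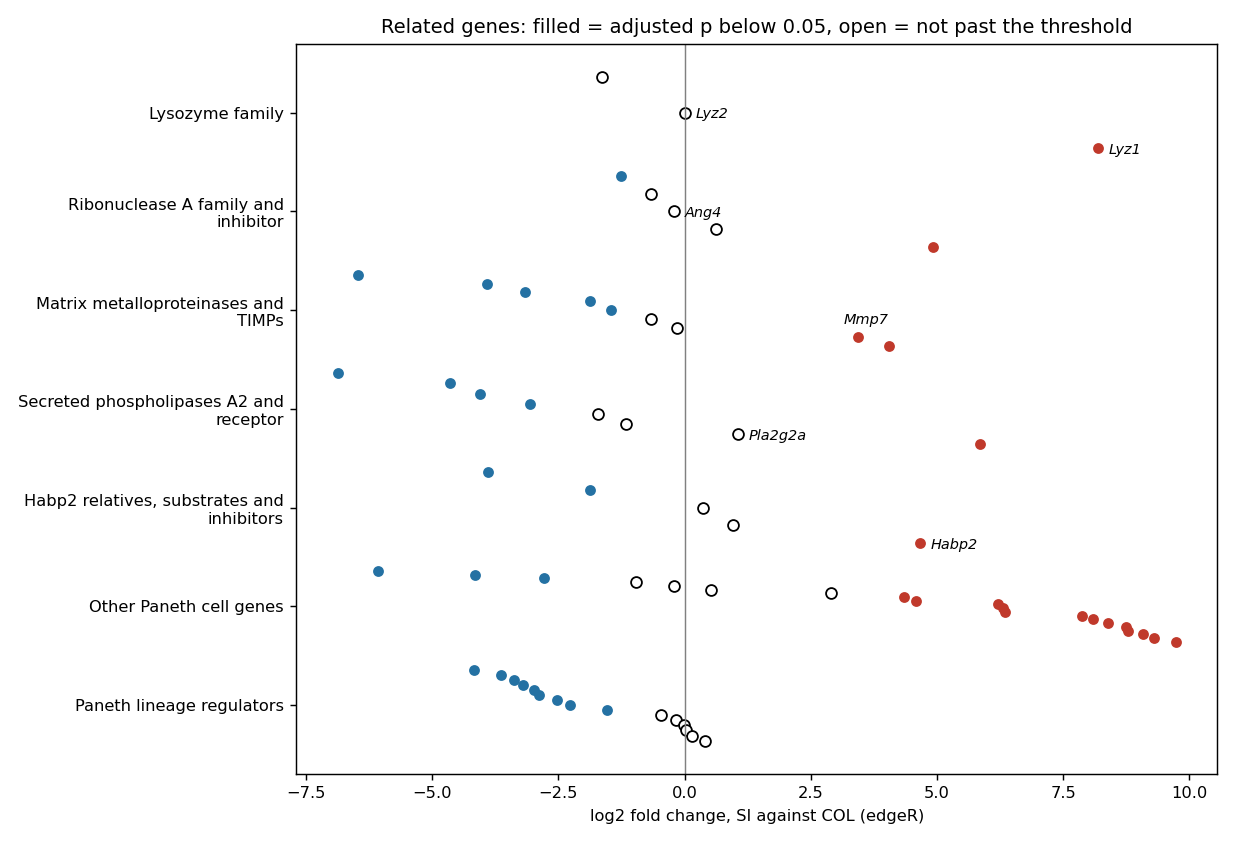
Log2 fold change of SI against COL for the tested genes of each list, with 1 point per gene, filled where called (red higher in SI, blue higher in COL), open where not, members marked by name, and a line at 0. Defa26, which had no count in COL, is left out. The members Lyz1, Mmp7 and Habp2 are filled and lie at 8.18, 3.43 and 4.66, and no lineage regulator is filled above 0.

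Most other Paneth cell genes had the direction of Lyz1. Of 23 genes listed 21 were tested, 14 of them called as higher in SI and 3 as higher in COL, with a median log2 fold change of 6.32. Reg3g, a lectin against Gram-positive bacteria, was at 3211 ± 496 CPM in SI against 134.4 ± 82.5 CPM in COL (log2 fold change 4.58), and Guca2b, the uroguanylin gene, at 2570 ± 1129 and 34.9 ± 13.8 CPM (log2 fold change 6.20). Defa24, the most abundant defensin tested, was at 1117 ± 796 and 3.37 ± 3.49 CPM (log2 fold change 8.39, adjusted p = 0.000603 in edgeR's quasi-likelihood test). Defa26 had 52 to 333 counts per SI library and none in COL, which made it at least 515.3-fold higher in SI against a floor of 3 counts over the 4 COL libraries (log2 at least 9.01), a value above the list's median. Defa3 had 24 to 308 counts per SI library and 1 count in COL. Of the 21 genes 14 were lowest in SI1, as 5 of the members were, and 9 had the order SI2, SI3, SI4, SI1. The shares over all genes tested were 35.1% and 12.6%. Another 4 were highest in SI1, as 5 of the 7 villus enterocyte markers and 28.3% of all genes tested were. Reg3g and Guca2b were among these 4, and Guca2b stood at 4150 CPM in SI1 and 1478 CPM in SI2. Within SI these 2 genes thus did not follow Lyz1. Nupr1, a stress-response chromatin protein (13.3 against 895.0 CPM), the secretory gene Spink4 (157.0 against 1087 CPM) and Copz2 were higher in COL.

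Genes that direct the Paneth and other secretory lineages did not share the direction of Lyz1. All 15 listed were tested, with 0 genes called as higher in SI and 9 as higher in COL by edgeR's quasi-likelihood test (0 higher in SI also at an unadjusted p under 0.05 and by limma-voom), with a median log2 fold change of -2.28. Ern2, a stress sensor of secretory cells, was at 29.9 ± 13.9 CPM in SI against 273.1 ± 53.3 CPM in COL (log2 fold change -3.19). Spdef was at 8.39 ± 2.73 and 86.8 ± 36.8 CPM (log2 fold change -3.37). Sox9, needed for Paneth cell formation, was at 7.53 ± 3.30 and 59.4 ± 18.5 CPM (log2 fold change -2.98), and Foxa1 had the lowest log2 fold change of the list (-4.17). Tcf7l2, the main TCF factor of the crypt, stood at 181.9 and 205.4 CPM and Xbp1, a regulator of the secretory pathway, at 57.8 and 58.5 CPM, and neither was called.

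The remaining marker lists describe what the crypt preparations held beside the members. The 5 epithelial markers (Krt8 and Krt19 were the most abundant over all libraries) summed to 7594 to 11952 CPM in SI and 3744 to 11867 CPM in COL, and Vil1 was the one called (3552 against 372.7 CPM, log2 fold change 3.25). Lymphocyte and plasma cell markers (Ptprc and Cd3e) summed to 45.3 to 92.2 CPM in SI and 12.7 to 44.1 CPM in COL, and stromal and endothelial markers (Vim and Pecam1) to 3.48 to 12.7 and 5.78 to 16.2 CPM. Pancreatic acinar markers, checked because Rnase1 and Pla2g1b are pancreatic genes, summed to 9.91 to 16.9 CPM in SI and 79.6 to 209.1 CPM in COL, nearly all of it Cela1, and Amy2a5 had no count. Brunner gland markers (Muc6 and Tff2) stayed at 0.183 to 2.18 and 0.562 to 3.70 CPM.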

How the data were processed

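RNA-Seq was run by the study on an Illumina HiSeq4000, for 8 libraries of freshly isolated crypts. The authors trimmed reads with Trimmomatic 0.36, aligned them with STAR 2.5.2b to mm10 and deposited whole-number counts per Ensembl gene without normalization, 1 column per library (the labels also list mm9). The annotation release and the strand setting are not given in the sources used here, so reads of genes that overlap on opposite strands may have been counted for either. The organoid isolation protocol of the study scrapes villi off the small intestine. Groups, donor mice and sex came from the labels.

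The GENCODE vM21 annotation (GRCm38) gave symbols, exon lengths and coordinates, and in it 563 of 45706 identifiers had no entry, and promoter sequences from RefSeq. In R 4.3.3, edgeR 4.0.16 (TMM, filterByExpr with a minimum count of 10, quasi-likelihood test) compared 4 SI with 4 COL libraries over 14491 genes with Benjamini-Hochberg adjustment and a threshold of 0.05. The study used limma. Per-mouse differences used an offset of 0.1 CPM and correlations log2 CPM with a prior count of 2. Intervals cover counting error only. Replicate libraries of a tissue differed beyond sampling noise. Libraries of a tissue come from separate mice.

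The donor mouse pairs SI with COL. The correlations of same-mouse deviations from the tissue means were -0.24, 0.39, -0.08 and 0.33 (mean 0.1, against -0.03 for other mice), and the fit with this block was an alternative, beside scaling by library size or RLE, DESeq2 1.42.0, limma-voom 3.58.1, filters, a mitochondrial covariate, removal of 18 genes of over 1% of a library, paralog sums and leaving out each library. The members and lists were chosen with earlier results of these data known. Named genes are the 6 members, for each family list the 4 most abundant tested genes and the largest called change in each direction, for each marker list the 2 most abundant genes, and the 3 genes most correlated with each member. A few further called genes of these lists were named after their values were seen. The fits were also run on simulated counts with known changes. These had a lower dispersion than the common dispersion of 0.245 in the data and no mouse effect, so that run cannot show how the fits do at the spread of these data.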

Additional observations from a re-analysis of the deposited data

Results flagged for a closer look

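Pla2g2a was singled out because its SI against COL difference ran in opposite directions in the sexes, higher in SI in both males and lower in SI in both females. In the fit with the interaction of tissue and sex, the log2 fold change was -1.08 in females and 2.29 in males, and the male minus female difference was 3.38 (SE 0.87). It did not pass the correction over 14491 genes (adjusted p = 0.909 in edgeR's quasi-likelihood test). With 2 libraries per tissue and sex, and with the male SI libraries being those of high mitochondrial share, sex and mitochondrial share cannot be told apart in SI. Villus enterocyte marker sums were also higher in the female SI1 and SI4 (118833 and 83838 CPM) than in the male SI2 and SI3 (51650.5 and 48851 CPM). Goblet marker sums were 11036 and 8357 CPM in these females and 2909 and 4283 CPM in these males. Sex cannot be told apart from these marker differences in SI either. Mmp7 had the larger difference of 4.11 (SE 0.97), with a log2 fold change of 1.45 in females and 5.55 in males, and it did not pass the correction either (adjusted p = 0.909 in the same edgeR test).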

How the results depend on the processing

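Lyz1, Mmp7 and Habp2 were called as higher in SI with every library left out in turn (3 members in each of the 8 fits, 3167 to 4480 genes in all) and in the fit with the mouse as a replicate block (3 members, 4072 genes), which changed no call of a member. Lyz1 kept its call in all alternatives run, its sum with Lyz2 included, at log2 fold changes of 6.69 to 9.31. A minimum of 10 counts in every library left 1 member called, Lyz1, because Mmp7, with 6 counts in COL2, and Habp2, with 0 in COL1, were then not tested. Alternatives chosen after seeing the data used only the libraries of high mitochondrial share (2264 genes called) or only those of low share (5530 genes, 2 members, without Mmp7), each with 2 libraries per tissue. Members that were not called changed direction. Lyz2 was at -0.83 with library size alone, -0.0051 with RLE, -0.0037 with DESeq2, -0.076 without a filter, -0.065 without genes of over 1% of a library, -0.36 in the libraries of low mitochondrial share, and -0.30 to 0.59 with libraries left out. Ang4 was at 0.15 with the replicate block, 0.13 with the mitochondrial covariate, 0.41 in the libraries of low share, and -0.65 to 0.56 with libraries left out. Pla2g2a was at -0.62 in the libraries of low share. The cause was not tested. Habp2 rested on 0 to 8 counts per COL library.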
